A study of Mus musculus with 3 samples.

Results

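Expression of 10 genes that mark eosinophils, basophils and mast cells was examined in RNA-seq libraries of bone marrow (BM) Ly6G+ myeloid cells. The genes were taken by symbol from the 16072 named genes of the table. They comprised 7 eosinophil genes (Prg2, Epx, Ear1, Ear2, Ear6, Ccr3 and Il5ra) and 3 basophil and mast cell genes (Mcpt8, Cpa3 and Fcer1a). The cells came from C57BL/6 mice that had been given B16.F10 melanoma cells under the skin and, 1 week later, an intramuscular injection of an adeno-associated virus (AAV) vector. The AAV-ctrl group (2 libraries) received an empty vector. The AAV-IL27 group (1 library) received a vector that encodes the cytokine IL-27 under a broadly active promoter, so that the injected animal itself is the source of the cytokine. The study used mice of 6 to 10 weeks, collected these cells 3 weeks after the vector and described them as Gr-1+. All groups carried the tumour. The labels speak of 4 mice, while 2 AAV-ctrl libraries and 1 of AAV-IL27 are listed, so differences are descriptive and no p-value was computed. With 1 AAV-IL27 library, the spread among AAV-IL27 mice was not measured here.

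Values are FPKM, fragment numbers scaled by transcript length and by the mapped total, so levels can be compared between genes. Depth was estimated at 18700000 to 19100000 fragments per library from the steps between low FPKM values. Neutrophil genes dominated each library, with S100a9 at 68765 to 73508 FPKM and Ly6g at 712 and 766 FPKM in the first and second AAV-ctrl library and 586 in AAV-IL27. Where 3 values are given without names they follow this order. The 10 eosinophil, basophil and mast cell genes together made up 0.0236%, 0.0250% and 0.0184% of all FPKM in the same order of libraries. In a Ly6G+ population these genes can come from a few other cells in the sort, and in bulk RNA fewer cells of a type and less RNA per cell cannot be told apart.

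Eosinophils, basophils and mast cells are the granulocyte lineages of type 2 immunity. Eosinophils depend on IL-5, enter tissues through the eotaxin receptor CCR3 and store cationic proteins and ribonucleases in their granules. Basophils and mast cells bind IgE through the high-affinity receptor FcεRI and store proteases and histamine. GATA and C/EBP transcription factors direct these lineages in the BM.

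The promoter windows of Ccr3 and of the 3 ribonuclease genes are given here. Among the members, Ccr3 had the largest difference in log2(FPKM + 1), and the ribonuclease genes are near copies of one another. Whether the windows bear on the expression values was not tested. Each window runs from 250 bases before to 50 bases after an annotated start, from RefSeq on GRCm38.p6, written 5′ to 3′ on the gene's strand. For Ccr3 the start is that of the transcript the table lists, whose GENCODE model runs from 124021972 to 124031689. The RefSeq gene span given further on begins upstream of it. Capitals mark GATAA, the core bound by GATA factors (TTATC on the opposite strand), and TTGCNNAA, a C/EBP-type motif (TTNNGCAA on the opposite strand). The windows lie at chr9:124021721-124022020 on the plus strand (Ccr3), chr14:43819590-43819889 on the minus strand (Ear1), chr14:44102404-44102703 on the plus strand (Ear2) and chr14:51853518-51853817 on the plus strand (Ear6).
Ccr3: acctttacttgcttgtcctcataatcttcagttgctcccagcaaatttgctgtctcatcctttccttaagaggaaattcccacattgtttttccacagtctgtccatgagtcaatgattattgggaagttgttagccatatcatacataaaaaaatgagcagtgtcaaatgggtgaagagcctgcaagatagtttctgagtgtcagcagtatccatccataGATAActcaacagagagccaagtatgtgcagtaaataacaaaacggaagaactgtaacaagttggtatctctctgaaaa
Ear1: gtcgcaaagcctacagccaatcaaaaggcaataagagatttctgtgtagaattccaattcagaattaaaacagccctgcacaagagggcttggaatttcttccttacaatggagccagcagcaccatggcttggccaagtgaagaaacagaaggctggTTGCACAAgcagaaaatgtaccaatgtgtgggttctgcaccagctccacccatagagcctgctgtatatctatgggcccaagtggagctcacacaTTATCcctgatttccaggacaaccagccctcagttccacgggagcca
Ear2: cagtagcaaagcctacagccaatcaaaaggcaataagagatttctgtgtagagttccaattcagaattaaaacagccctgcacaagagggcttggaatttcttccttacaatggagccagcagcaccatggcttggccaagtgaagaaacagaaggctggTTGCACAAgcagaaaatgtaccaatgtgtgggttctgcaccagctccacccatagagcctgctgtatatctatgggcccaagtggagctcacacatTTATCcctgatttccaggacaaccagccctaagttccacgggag
Ear6: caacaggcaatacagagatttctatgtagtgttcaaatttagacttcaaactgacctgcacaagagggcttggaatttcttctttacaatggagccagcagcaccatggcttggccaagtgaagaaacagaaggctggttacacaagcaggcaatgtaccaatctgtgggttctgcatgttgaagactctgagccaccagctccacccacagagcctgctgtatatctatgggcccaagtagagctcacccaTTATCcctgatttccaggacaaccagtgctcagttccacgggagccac

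The Ear1 and Ear2 windows were 97.0% identical, while the Ear6 window was 80.7% identical to that of Ear1 and 79.0% to that of Ear2. GATAA occurred just after the annotated start in all 3 ribonuclease windows and 29 bases before it in Ccr3. Among the 9 members with a window, 7 held GATAA (Ear1, Ear2, Ear6, Ccr3, Il5ra, Cpa3 and Fcer1a), against 25.3% of 32544 windows of all genes. TTGCNNAA occurred in 3 of the 9 (Ear1, Ear2 and Fcer1a), against 10.8% of all windows. A match describes these letters only, and the ribonuclease windows share their sequence.

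Levels spanned from below 1 FPKM to over 100 FPKM. In AAV-ctrl the order from high to low was Ear2, Ccr3, Prg2, Mcpt8, Ear1, Epx, Ear6, Cpa3, Il5ra and Fcer1a. The AAV-ctrl ranges of neighbours in this order were separate down to Epx and again between Cpa3 and Il5ra. Those of Mcpt8 and Ear1 nearly touched, with a lower Mcpt8 value of 4.18 FPKM and a higher Ear1 value of 4.17. That gap is smaller than the FPKM of 1 estimated fragment, so the order of these genes is not resolved. The ranges overlapped between Epx and Ear6, between Ear6 and Cpa3 and between Il5ra and Fcer1a. In AAV-IL27 the place of Ccr3 went from 2 to 4, behind Prg2 and Mcpt8, and that of Epx from 6 to 8. Ear2 stayed the highest of the 10, and Fcer1a stood above Il5ra.

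**Figure D1:**
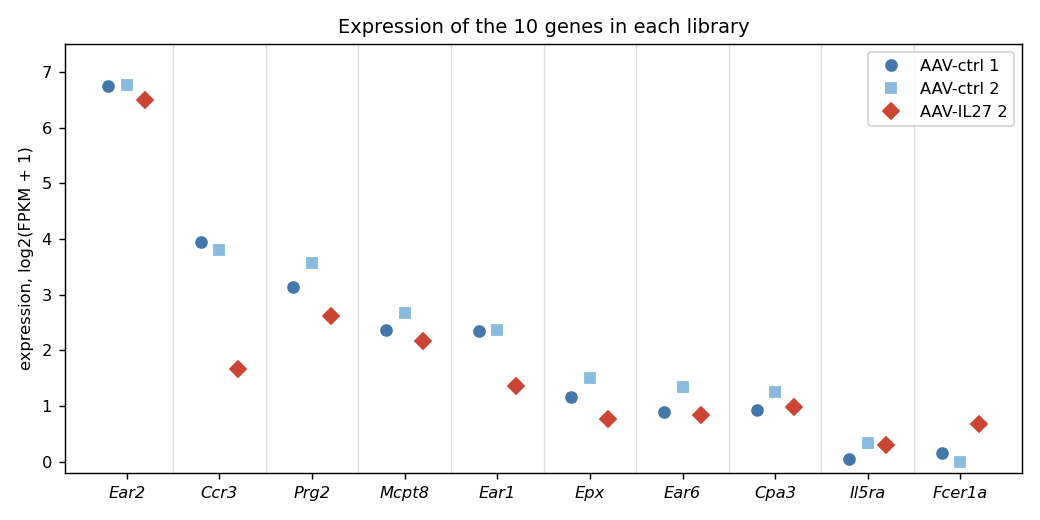
Expression of the 10 genes as log2(FPKM + 1) on the vertical axis, with 1 point per library and genes ordered by their AAV-ctrl mean. The AAV-IL27 point of Ccr3 differs from the nearer AAV-ctrl point by -2.14, and those of Ear2 and Mcpt8 by -0.25 and -0.20.

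Of the eosinophil receptors, Ccr3 was lower in AAV-IL27 and Il5ra was not separated. Ccr3 (NCBI Gene 12771, GRCm38 chr9:124017825-124031692, plus strand, 2 exons in its transcript) encodes the receptor through which eotaxins attract eosinophils, and basophils carry it as well. It had an FPKM of 14.4 in AAV-ctrl 1, 12.9 in AAV-ctrl 2 and 2.16 in AAV-IL27. The AAV-IL27 value was 15.8% of the AAV-ctrl mean of 13.7 ± 1.04 (SD, n = 2), a difference of -2.21 in log2(FPKM + 1). On this scale the change of low genes is understated. The AAV-ctrl libraries themselves differed by -0.14. These FPKM values correspond to an estimated 869, 793 and 130 fragments, and the 95% Poisson interval of AAV-IL27, from 108.6 to 154.4, lay below both AAV-ctrl intervals. Such intervals cover counting error only.

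Ccr3 lies in a cluster of chemokine receptor genes, and its neighbours within 200 kb were looked up after its values were seen. Of the 3 neighbours whose mean FPKM reached 1 (Fyco1, Ccr1 and Ccr2), 0 were called lower or higher. Over all genes tested, 2.32% were called lower and 0.307% higher. Ccr1, the most abundant of them, had an FPKM of 239, 209 and 214. Ccr2, a monocyte receptor, had 1.43, 1.61 and 2.64, and was the highest in AAV-IL27.

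Il5ra (chr6:106710375-106749037, minus strand) encodes the subunit that binds IL-5. It was near the limit of detection, with an FPKM of 0.04, 0.27 and 0.23, or an estimated 3, 18 and 15 fragments. The AAV-ctrl libraries differed more from each other (0.29 in log2) than AAV-IL27 differed from their mean (0.10). Siglecf, another eosinophil surface receptor from the gene lists, went the opposite way to Ccr3, with an FPKM of 9.49, 7.44 and 12.4, a log2 difference of 0.51 against -0.31 between the AAV-ctrl libraries. The ratio of Siglecf to Ccr3 was 0.659 and 0.576 in AAV-ctrl and 5.72 in AAV-IL27.

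The granule protein genes Prg2 and Epx were lower in AAV-IL27 than in both AAV-ctrl libraries, by less than 1 log2 unit. Prg2 (chr2:84980461-84983632, plus strand) encodes major basic protein, the main cationic protein of the eosinophil granule, and had an FPKM of 7.83, 10.9 and 5.16. The AAV-IL27 value was 55.1% of the AAV-ctrl mean of 9.36 ± 2.16 (SD, n = 2), a log2 difference of -0.73, beside 0.43 between the AAV-ctrl libraries. Its estimated 75 fragments in AAV-IL27 had an interval reaching 94.0, just under the lower bound of 94.9 in AAV-ctrl 1.

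Epx (chr11:87863997-87875536, minus strand), which encodes eosinophil peroxidase, had an FPKM of 1.23, 1.83 and 0.71. This was 46.4% of the AAV-ctrl mean and a log2 difference of -0.55, beside 0.34 between the AAV-ctrl libraries. Its estimated 35 fragments in AAV-IL27 had an interval from 24.4 to 48.7, which overlapped the interval of AAV-ctrl 1. Prg3, a relative of Prg2 in the gene lists, stood at 0.48, 0.47 and 0.18 FPKM. The ratio of Prg2 to Epx was alike in the libraries, at 6.37, 5.95 and 7.27. That of Ccr3 to Prg2 was 1.84, 1.19 and 0.419, so Ccr3 was the lower of the pair in AAV-IL27 and the higher in both AAV-ctrl libraries.

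The eosinophil-associated ribonucleases Ear1, Ear2 and Ear6 are granule proteins with antimicrobial activity, and Ear2 is also known from monocytes and macrophages. All 3 genes lie on chromosome 14 (Ear1 at chr14:43818765-43819639, Ear2 at chr14:44102654-44103531 and Ear6 at chr14:51853768-51854643), and their transcripts have 2 exons. Mcpt8 is on the same chromosome, so that 4 of the 10 members are. Ear2 was by far the most abundant member, with an FPKM of 106, 108 and 89.6, and took 78.9%, 77.4% and 89.4% of the summed FPKM of the eosinophil genes. In AAV-IL27 it was at 83.5% of the AAV-ctrl mean of 107 ± 1.26 (SD, n = 2), a log2 difference of -0.26 beside 0.02 between the AAV-ctrl libraries. Its estimated 1105 fragments in AAV-IL27 had an interval from 1040.8 to 1172.1, below both AAV-ctrl intervals.

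Ear1 had an FPKM of 4.07, 4.17 and 1.56 in the same order, or 37.9% of the AAV-ctrl mean of 4.12 ± 0.0707 (SD, n = 2). Its log2 difference of -1.0 was larger in size than that of Ear2, although the AAV-ctrl libraries differed by only 0.03. The ratio of Ear2 to Ear1 was accordingly 26.2 and 26.0 in AAV-ctrl and 57.5 in AAV-IL27. Ear6 had an FPKM of 0.86, 1.55 and 0.78, and its estimated 11, 19 and 10 fragments could not separate the groups. Its log2 difference of -0.29 became -0.52 against the second AAV-ctrl library alone and -0.06 against the first alone.

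The promoter windows printed above for Ear1 and Ear2 are nearly the same, and so are the transcripts, at 96.0% identity with a longest shared run of 96 nt. Ear6 was 88.5% identical to Ear1 and 88.2% to Ear2. No stretch of 100 nt of one transcript occurred unchanged in another, but shorter reads can fit several, and the read length and the treatment of such reads are not given in the sources used here. Single values of Ear1 and Ear6 are therefore uncertain beside the abundant Ear2. Fragments moved between the 3 genes would largely stay in their sum, which was 111, 114 and 92.0 FPKM, at 81.6% of the AAV-ctrl mean. Fragments exchanged with Ear genes outside these 3 would change the sum. Ear10 and Ear14, also in the gene lists, had no values here.

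The basophil and mast cell genes went different ways, with Mcpt8 below, Cpa3 between and Fcer1a above the AAV-ctrl libraries. Mcpt8 (chr14:56082163-56085499, minus strand), a protease found in basophils, had an FPKM of 4.18, 5.40 and 3.50, a log2 difference of -0.36 beside 0.31 between the AAV-ctrl libraries. Against the second AAV-ctrl library alone it was -0.51 and against the first alone -0.20, and its fragment intervals overlapped. Cpa3 (chr3:20215616-20242209, minus strand) encodes the carboxypeptidase stored in mast cell granules and also made by basophils. It had an FPKM of 0.90, 1.38 and 0.97, with AAV-IL27 between the AAV-ctrl libraries.

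Fcer1a (chr1:173221269-173227232, minus strand) encodes the IgE-binding chain of FcεRI and was the single member above both AAV-ctrl libraries. It was at 0.11 FPKM in AAV-ctrl 1, listed at 0 in AAV-ctrl 2 and at 0.60 in AAV-IL27. This corresponds to an estimated 2, 0 and 11 fragments. The interval in AAV-IL27, from 5.5 to 19.7, overlapped that of AAV-ctrl 1, from 0.2 to 7.2, and lay above that of AAV-ctrl 2, which reached 3.7. The log2 difference of 0.60 became 2.27 and 4.14 with pseudocounts of 0.1 and 0.01. The summed FPKM of Mcpt8, Cpa3 and Fcer1a was 5.19, 6.78 and 5.07, with AAV-IL27 at 84.7% of the AAV-ctrl mean of 5.99 ± 1.12 (SD, n = 2).

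**Figure D2:**
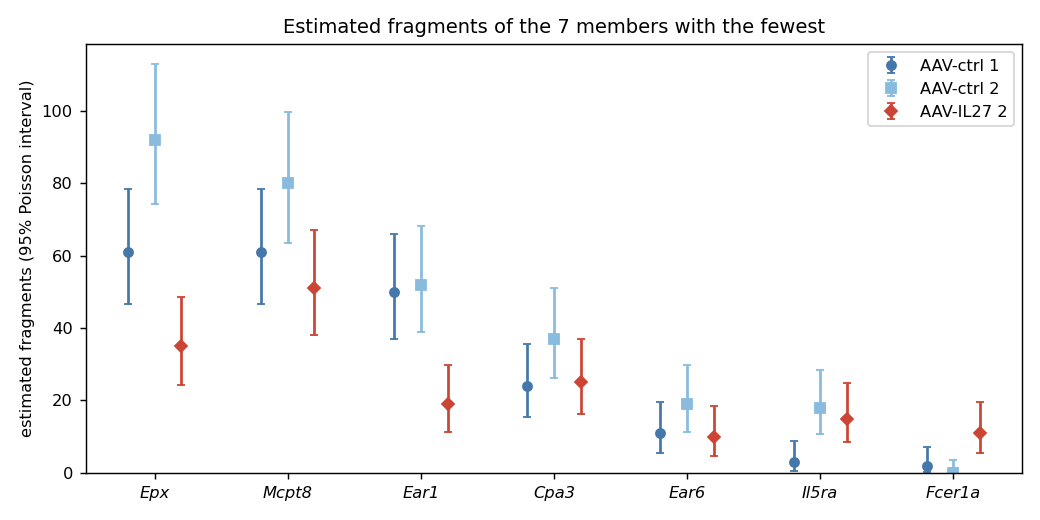
Estimated fragments (vertical axis) of the 7 members with the fewest, with 95% Poisson intervals for counting error, in the 2 AAV-ctrl libraries and the AAV-IL27 library. Of these 7, the AAV-IL27 interval lies below both AAV-ctrl intervals for Ear1 and overlaps at least 1 of them for the other members.

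Over the set, a call of lower or higher required AAV-IL27 to differ by 1 log2 unit or more from both AAV-ctrl libraries in that direction. It was made for the 9130 genes whose mean FPKM reached 1. Of the 10 members, 8 reached that mean, and Il5ra and Fcer1a did not. Among these 8, 1 was called lower, Ccr3, against 2.32% of all genes tested. For Ear6 and Cpa3, with less than 1 FPKM in AAV-ctrl 1, no value in AAV-IL27 could have been called lower on this scale. Of the 6 members that could, 1 was called, against 2.36% of all genes that could. A 4-fold fall reaches 1 log2 unit only from 2 FPKM upward, so that one of Epx would have been missed too. None was called higher, against 0.307% of all genes tested. Ear1 fell just outside, at -0.99 from the nearer AAV-ctrl library, and next came Prg2 at -0.52. Ear1 passed when AAV-ctrl 1 was left out. Of the 10 members, 7 were below both AAV-ctrl libraries by any amount, against 41.8% of all 16072 genes, and 1 was above both, against 29.6%. The 7 comprised 6 of the 7 eosinophil genes and 1 of the 3 basophil and mast cell genes.

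The median log2 difference was -0.32 over the 10 members and -0.55 over the 7 eosinophil genes, against -0.02 over all genes. The AAV-ctrl libraries differed in these genes as well. Of the 10 members, 8 were higher in AAV-ctrl 2 than in AAV-ctrl 1, against 49.4% of all genes, and the median size of that difference was 0.297 over the members and 0.0706 over all genes. For Ccr3, Ear1, Prg2, Epx, Ear2, Mcpt8 and Fcer1a, the difference of AAV-IL27 from the AAV-ctrl mean exceeded the difference between the AAV-ctrl libraries in size, and for Ear6, Cpa3 and Il5ra it did not. These are 7 of 10 members, against 59.4% of all genes.

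**Figure D3:**
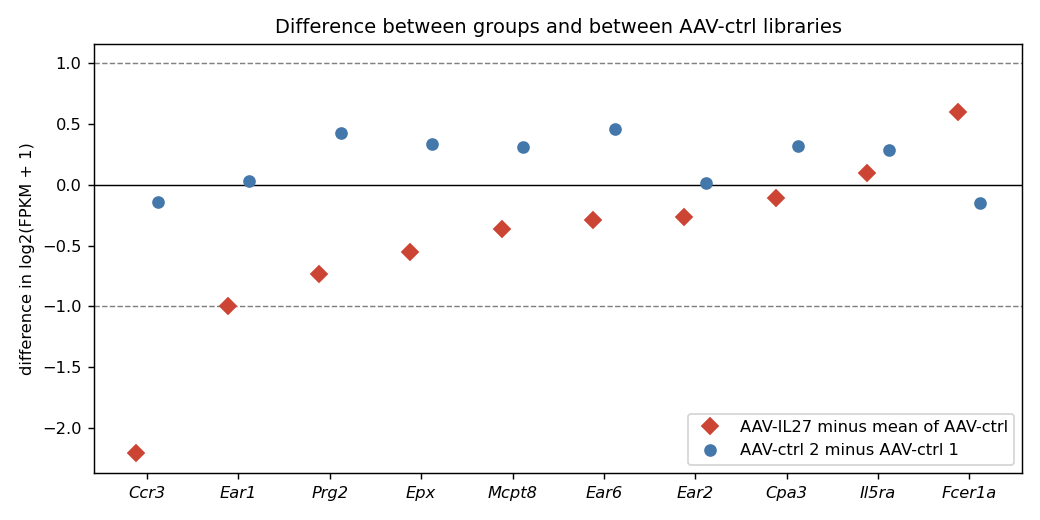
Difference in log2(FPKM + 1) for each of the 10 genes, as AAV-IL27 minus the AAV-ctrl mean (diamonds) and as AAV-ctrl 2 minus AAV-ctrl 1 (circles), with dashed lines at -1 and 1. Ccr3 lies at -2.21 and Ear1 at -1.0, while the circles of the 10 genes lie between -0.15 and 0.46.

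The summed FPKM of the 7 eosinophil genes was 135, 140 and 100.2, and AAV-IL27 was at 73.0% of the AAV-ctrl mean. Because Ear2 carried most of this sum, the other 6 genes were summed as well. They reached 28.4, 31.6 and 10.6 FPKM, with AAV-IL27 at 35.3% of the AAV-ctrl mean. Without both Ear2 and Ccr3, the remaining 5 genes had 14.0, 18.7 and 8.44 FPKM, or 51.6%. AAV-IL27 was thus below both AAV-ctrl libraries in each of these sums, by an amount that depended on Ear2 and Ccr3.

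Other genes of the same lineages were described from fixed lists that include the members. Over all genes tested, 2.32% were called lower and 0.307% higher, and the counts of each list below are to be read beside these shares. Of the eosinophil granule and ribonuclease list, 5 of 8 genes analysed reached a mean FPKM of 1, and 0 were called lower or higher. At these shares a list of this size can hold no call without telling anything of its genes. Ear6 could not have been called lower, and a 4-fold fall of Epx would have been missed. In the eosinophil receptor and enzyme list, Ccr3 was the 1 gene called lower of 5 tested, and 0 were called higher. Csf2rb, the chain shared by the IL-5, IL-3 and GM-CSF receptors, and Csf2ra, the alpha chain of the GM-CSF receptor, are also expressed by neutrophils and had log2 differences of -0.30 and 0.26. Alox15, a lipoxygenase of eosinophils and macrophages, had a mean FPKM below 1, at 0.64, 1.74 and 0.20. It varied more between the AAV-ctrl libraries (0.74) than any of the 10 members did.

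Of the basophil and mast cell proteases, 4 of 8 genes analysed reached a mean FPKM of 1 and 0 were called lower or higher. Prss34, a basophil protease, had an FPKM of 5.96, 8.20 and 7.85, and the ratio of Prss34 to Mcpt8 was 1.43, 1.52 and 2.24. Of the mature mast cell proteases, Mcpt1 was listed at 0 in all 3 libraries, Mcpt2 at 0.23, 0.06 and 0 and Cma1 at 0, 0 and 0.05 FPKM. Mcpt4, Tpsab1 and Tpsb2 of the same list had no values here. Of the surface and amine genes, 8 of 13 were tested and 0 were called. Kit, in this list and in the progenitor list, stood at 5.55, 5.39 and 6.94 FPKM, above both AAV-ctrl libraries in AAV-IL27. Ms4a2, the FcεRI beta chain, stood at 0.24, 0.33 and 0.25 FPKM, with AAV-IL27 between the AAV-ctrl libraries, unlike Fcer1a. Fcer1g, the chain that FcεRI shares with Fc gamma receptors of neutrophils, was at 1614, 1574 and 1635 FPKM. Hpgds, a prostaglandin D2 synthase of mast cells and macrophages, had a log2 difference of -1.02, with an FPKM of 3.28, 2.67 and 0.95, but lay less than 1 log2 unit below AAV-ctrl 2. Of 9 genes of FcεRI signalling tested, 0 were called.

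The ligands were barely detected. Il5 was listed at 0, 0 and 0.04 FPKM and Il4 at 0.10, 0.19 and 0.09 FPKM. Of the 3 genes of the ligand and receptor list that were tested, all of them receptor genes (Crlf2, Il4ra and Il13ra1), 0 were called.

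Of 17 lineage transcription factors tested, 3 were called lower and 0 higher, against 2.32% and 0.307% of all genes tested. Gata1, a regulator of eosinophils and also of red cells and megakaryocytes, had an FPKM of 3.83, 4.12 and 0.54. Its cofactor gene Zfpm1 had 6.40, 6.67 and 0.83, and Tal1, a factor of red cell and megakaryocyte development, had 4.40, 4.36 and 1.40. Gata2, which acts in basophils and mast cells, was at 0.78, 0.84 and 0.47. Cebpe, needed for the granules of neutrophils and eosinophils, was at 119, 139 and 124, with AAV-IL27 between the AAV-ctrl libraries. The median difference of the 17 genes was 0.00.

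Markers of several other cell types were lower in the AAV-IL27 library. All 8 macrophage genes and all 8 erythroid genes were called lower, against 2.32% of all genes tested. Their summed FPKM was 574, 609 and 150.3 for macrophages and 20425, 13780 and 2343 for erythroid cells. Of the megakaryocyte genes 3 of 5 tested and of the B cell genes 3 of 3 tested were called lower, with FPKM of 51.9, 58.0 and 9.55 and of 24.8, 31.3 and 3.89 summed over all 5 and all 6 listed genes. Their AAV-IL27 sums were 17.4% and 13.9% of the AAV-ctrl mean, beside 15.8% for Ccr3 and 25.4% for macrophages. No gene of the 5 monocyte, 10 neutrophil, 5 early neutrophil granule, 2 T and NK cell or 2 progenitor genes tested was called. Summed over all genes of each list, tested or not, these 5 lists ranged from 95.9% to 126% of the AAV-ctrl mean. No defining marker of these lists was at 0 in all libraries. The part of these cells in the values of Ccr3, Ear2 and Gata1 was not tested.

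**Figure D4:**
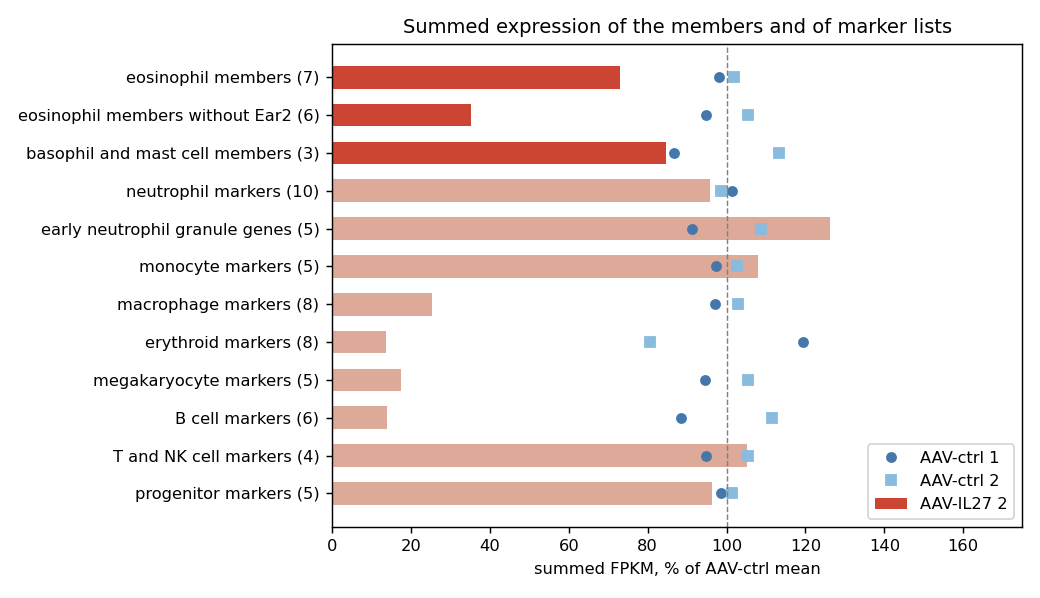
Summed FPKM of the members and of marker lists as a percentage of the AAV-ctrl mean (horizontal axis), with bars for AAV-IL27 and points for the AAV-ctrl libraries. The 7 eosinophil genes reach 73.0%, those without Ear2 35.3% and the basophil and mast cell genes 84.7%. Macrophages stand at 25.4% and neutrophils at 95.9%.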

How the data were processed

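RNA-seq of BM Ly6G+ cells was analysed for 2 AAV-ctrl libraries and 1 AAV-IL27 library, grouped by their titles. The authors enriched mRNA with oligo-dT, made strand-marked cDNA and deposited FPKM values to 2 decimals. Of 16073 rows, 1 without a symbol was left out. The submitters' processing notes name the build mm10, and the aligner and counting tool are not given in the sources used here. The table has 1 more column of per-sample values. Its name gives it as another AAV-IL27 library, but no sample in the labels fits it, and it stayed out, so all AAV-IL27 values rest on 1 library. The paper itself reports 2 per group for its RNA-seq of BM Gr-1+ cells.

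Differences are log2(FPKM + 1) of AAV-IL27 minus the AAV-ctrl mean. Calls needed 1 log2 unit from each AAV-ctrl library and a mean FPKM of at least 1. Depth was fitted on low values of short genes among 10934 with a single transcript in GENCODE M21, after shortening each by 60 nt. Between 71.9% and 76.1% of 188 to 218 low values lay within 0.15 of whole fragments, so a count test was not used and fragment numbers are estimates only. Intervals are exact Poisson intervals at the 95% level. The call rule was tested on simulated 4-fold changes, and it missed many falls of genes with a mean FPKM of 1 to 5, a range that holds Ear1, Ear6, Epx, Mcpt8 and Cpa3.

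Positions are from RefSeq on GRCm38.p6, the assembly that mm10 names, with strands and exons from GENCODE M21. Of the gene numbers, 16035 matched RefSeq. A promoter window was given for 9 of the 10 members. Ribonuclease transcripts were compared by global alignment in place of proteins. All 10 members are described. Other genes are named from the fixed lists when called or when they define a cell type or pathway. Members and lists were chosen with earlier results of these data known. Alternatives were pseudocounts of 0.1 and 0.01, other filters, 2 rescalings and leaving out each AAV-ctrl library. The work used biopython 1.88, matplotlib 3.10.9, scipy 1.17.1, pandas 2.3.3, numpy 2.4.6 and Python 3.11.15.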

Additional observations from a re-analysis of the deposited data

How the results depend on the processing

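Ccr3 was called lower under each alternative run, with log2 differences from -2.65 to -2.14. The count of members called lower rose from 1 to 2, with Ear1 added, with a pseudocount of 0.1 or 0.01, and was 1 to 2 when an AAV-ctrl library was left out. No tested member was called higher under these alternatives. Fcer1a, which did not reach the filter, was tested only when no filter on low values was used. The median over the 8 tested members, of which Epx, Ear6 and Cpa3 reached the filter with less than 1 FPKM in AAV-IL27, was -0.70 with a pseudocount of 0.01 and -0.73 among the 3 members with a mean FPKM of at least 5, against -0.46. Both follow from how low values are weighted or removed. Over all genes, 212 were lower and 28 higher. With a pseudocount of 0.01 these were 424 and 46, and with 0.1 the lower genes were 396. When a mean FPKM of 5 was required, 93 were lower. Leaving out an AAV-ctrl library gave 243 to 294 lower and 40 to 49 higher genes. Of 60 values of single members under alternatives, 12 moved beyond the AAV-ctrl SD, and 8 of 10 members kept their sign. The exceptions were Cpa3 (-0.27 to 0.05) and Il5ra (-0.05 to 1.02). With pseudocounts of 0.1 and 0.01, Fcer1a moved most, from 0.60 to 2.27 and 4.14, and Epx went from -0.55 to -0.98 and -1.07. Ear6 ranged from -0.56 to -0.06 and Mcpt8 from -0.51 to -0.20. Leaving out AAV-ctrl 1 or AAV-ctrl 2 gave 74.8% or 97.7% for the basophil and mast cell sum. The largest shift of the median of all tested genes under a rescaling was to 0.03.

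Depth limits Fcer1a, Il5ra and Ear6, with at most 19 estimated fragments per library. The single AAV-IL27 library could not be left out. The sample titles do not mark AAV-ctrl and AAV-IL27 libraries as pairs, so no paired analysis was made.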
